A study of Mus musculus with 6 samples.

Results

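The 10 genes described here, of 55335 gene identifiers in the count files, mark brain tissue that borders the striatum. They were taken as a given list of symbols and matched to Ensembl identifiers through GENCODE, and all 10 were found. Of these, 6 encode precursors of neuropeptides made by hypothalamic neurons, namely Oxt, Avp, Trh, Pmch, Hcrt and Gal. The other 4, Zic1, Zic2, Zic4 and Trpc4, are known from the septum. RNA-seq was done on striatum of C57 mice, with 3 samples of the genotype PDE5A Overexpressing (OE) and 3 WT samples titled NC, the control. How PDE5A, a phosphodiesterase that degrades cyclic GMP, was overexpressed, what the NC samples received, and the age of the mice remain not given in the sources used here. The labels give no sex. The Y-linked gene Ddx3y had 2628 to 3273 counts in OE and 3031 to 3473 in NC, and Xist, made from the inactive X, had 15 to 41 counts in OE and 17 to 33 in NC, a male pattern in each library. No label ties the samples to separate mice, so each p-value reflects how far these samples scatter, and that scatter may be technical.

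Hypothalamic peptide neurons lie below and behind the striatum. Each makes a large precursor protein in the cell body, which is cut into the active peptide on its way to the nerve ending, so the mRNA is found where the cell bodies are, while the receptors are found in the target regions. Oxytocin (Oxt) and vasopressin (Avp) come from magnocellular neurons, melanin-concentrating hormone (Pmch) and orexin (Hcrt) from the lateral hypothalamus, and thyrotropin-releasing hormone (Trh) and galanin (Gal) from several hypothalamic nuclei and from other brain regions too. The septum lies between the striata at the midline. Zic genes encode zinc-finger transcription factors of the dorsal midline and the septum, and they are also expressed in the thalamus, the cerebellum and the meninges. Trpc4 encodes a cation channel of lateral septal neurons that is also made in the cortex.

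Most of the hypothalamic peptide genes were close to absent, and the septal genes were present at low levels in both groups. Oxt, Avp, Pmch, Hcrt and Gal had at most 26 counts in any library and did not pass the filter on low counts. Trh, Zic1, Zic2, Zic4 and Trpc4 passed it. By edgeR's quasi-likelihood F-test, adjusted after Benjamini and Hochberg over all genes tested, 0 of these 5 passed the threshold of 0.05, and 0 had an unadjusted p under that value. Each of the 5 had an adjusted p of 0.99996. The same test called 1 of the 19809 genes tested, or 0.00505%. Pmch was the one member whose OE and NC libraries did not overlap, with 3 or fewer counts in each OE library. Groups did not overlap for 8.93% of all genes tested and for 9.73% of genes with counts that did not pass the filter. A count of 1 among 10 members is close to both shares.

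Library totals ran from 33013698 to 39271447 counts in OE and from 40653784 to 42288789 in NC, so every OE library was the shallower. The manipulated gene, Pde5a, had 760, 700 and 592 CPM (counts scaled to a common library size) in OE replicates 1 to 3, against 3.72, 4.14 and 6.09 CPM in NC, and was the gene called, with a log2 fold change of 7.20 (SE 0.23) and an adjusted p of 0.000151 in edgeR's quasi-likelihood test. CPM values here are scaled by library sizes adjusted with the trimmed mean of M-values (TMM). Markers of other tissues differed between libraries. Some relations of 4 marker lists with the tested members are given below, and the part of other tissues in the group differences was not tested. The summed level of 15 choroid plexus markers was 925, 3486 and 320 CPM in OE, against 456, 330 and 324 CPM in NC. That of 12 cortical glutamatergic markers was 614, 1007 and 1855 CPM in OE, against 917, 371 and 1432 CPM in NC. In bulk tissue, fewer cells of a type and less RNA per cell cannot be told apart.

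The genes of Oxt and Avp need their sequence beside their counts, because a stretch of their coding DNA is the same. They lie on chromosome 2 of mm10 (GRCm38), Oxt (ENSMUSG00000027301) from 130576173 to 130577054 on the plus strand and Avp (ENSMUSG00000037727) from 130580620 to 130582554 on the minus strand, with 3565 bases between them. The coding sequences in GENCODE release M21, of 375 and 504 bases, share an unbroken run of 127 bases, at coding bases 119 to 245 of Oxt and 131 to 257 of Avp. This part encodes neurophysin, the carrier protein that both precursors contain. A read that falls wholly inside the run cannot be given to one of these genes, and how the submitters' counting treated such reads is not given in the sources used here. Both sequences are shown 5′ to 3′, with the shared run in capitals and 15 bases on each side.
Oxt: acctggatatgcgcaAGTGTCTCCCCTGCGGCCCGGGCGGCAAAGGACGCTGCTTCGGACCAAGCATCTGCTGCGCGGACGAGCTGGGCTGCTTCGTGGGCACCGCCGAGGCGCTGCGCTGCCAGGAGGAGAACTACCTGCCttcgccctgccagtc
Avp: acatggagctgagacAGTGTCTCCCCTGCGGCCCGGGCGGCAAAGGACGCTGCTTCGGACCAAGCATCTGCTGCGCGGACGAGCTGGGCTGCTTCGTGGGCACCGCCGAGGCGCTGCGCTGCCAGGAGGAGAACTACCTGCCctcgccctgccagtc

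Oxt had 0, 0 and 0 counts in OE replicates 1 to 3, against 0, 0 and 3 counts in NC replicates 1 to 3. A count of 0 allows up to 0.0760, 0.0902 and 0.0801 CPM in the OE libraries, and up to 0.0716 and 0.0731 CPM in NC replicates 1 and 2, counting error only. Both groups were at or under the limit of 3 counts, so no fold is given. Oxt was thus at 0 counts in 5 of 6 libraries, and whether uncounted reads of the run shared with Avp have a part in this was not tested.

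Avp had 21, 0 and 4 counts in OE, against 4, 10 and 14 in NC. OE held both the highest and the lowest library, so the groups overlapped. Over the summed counts of 25 in OE and 28 in NC, the ratio was 0.999, with an exact 95% interval of 0.559 to 1.78 that covers counting error only. The OE libraries ran from 0 to 0.532 CPM and the NC libraries from 0.0954 to 0.346 CPM.

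Hcrt (ENSMUSG00000045471), the orexin precursor gene on chromosome 11, had 0 counts in each OE library, against 2, 0 and 0 counts in NC. This was the lowest of the 10 members, and no fold is given. Gal (ENSMUSG00000024907), the galanin precursor gene on chromosome 19, had 0, 13 and 0 counts in OE, against 26, 8 and 10 in NC. Galanin mRNA was thus found in every NC library and in 1 of 3 OE libraries, and that OE library lay inside the NC range, so the groups overlapped. The ratio of the summed counts, 13 in OE and 44 in NC, was 0.331, with an exact 95% counting interval of 0.163 to 0.625. When all genes with counts were fitted without the filter, Gal had a log2 fold change of -1.49 (SE 1.26) and an adjusted p of 0.930 in edgeR's quasi-likelihood test.

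Pmch (ENSMUSG00000035383), the melanin-concentrating hormone precursor gene, had 3, 2 and 0 counts in OE, against 8, 16 and 6 counts in NC. On the CPM scale it had 0.0760, 0.0602 and 0 in OE, against 0.191, 0.390 and 0.148 in NC. Every OE library was below every NC library. Groups did not overlap in either direction for 9.73% of the 14307 genes that had counts but did not pass the filter, and for 2.47% OE was the lower group. These genes include ones with far fewer counts than Pmch, such as Oxt and Hcrt. The share among genes with counts like those of Pmch was not measured. The ratio of the summed counts, 5 in OE and 30 in NC, was 0.187, with an exact 95% counting interval of 0.0565 to 0.486. The spread between libraries is not part of that interval. The exact two-sided permutation test of log2 CPM returned p = 0.1, and 3 libraries against 3 allow none smaller. In the fit without the filter Pmch had a log2 fold change of -2.35 (SE 0.94), an unadjusted p of 0.0329 and an adjusted p of 0.930 in edgeR's quasi-likelihood test, so the difference did not pass over all genes. That fit called 0.00879% of 34116 genes.

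Pmch lies on chromosome 10 of mm10 from 88091072 to 88092375 on the plus strand, where it overlaps Parpbp on the minus strand. Parpbp, which encodes a PARP1-binding protein, had 28, 14 and 31 counts in OE, against 41, 20 and 18 in NC. The libraries were strand-specific per the labels, but the strand setting of the counting is not given, so reads of overlapping genes cannot be assigned with certainty. The 250 bases before the Pmch start, chr10:88090822-88091071 on the plus strand in RefSeq's GRCm38.p6, are shown because Pmch was the member with separate groups. Capitals mark the letters TATAAA, 27 bases before the start.
Pmch promoter: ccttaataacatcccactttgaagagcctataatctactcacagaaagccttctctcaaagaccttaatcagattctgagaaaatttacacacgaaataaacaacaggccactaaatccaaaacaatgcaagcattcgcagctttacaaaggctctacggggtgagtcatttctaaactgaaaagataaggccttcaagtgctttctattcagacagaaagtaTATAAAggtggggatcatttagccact

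**Figure D1:**
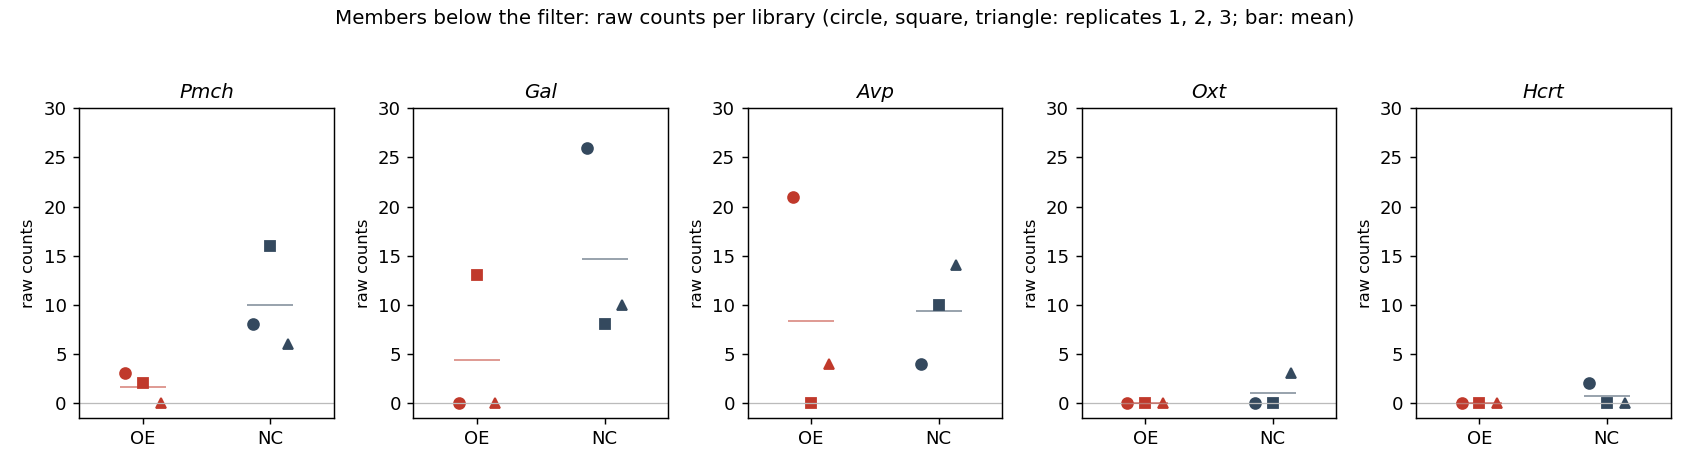
Raw counts of the 5 members below the filter in each library, OE left of NC (circle, square and triangle for replicates 1, 2 and 3, bar for the mean). The 3 OE libraries of Pmch sit at 0 to 3 counts, below the NC libraries at 6 to 16, while the groups of Gal and Avp overlap and Oxt and Hcrt are at or near 0.

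Trh was the one hypothalamic peptide gene that passed the filter. The gene (ENSMUSG00000005892) lies on chromosome 6 of mm10 from 92242061 to 92244650 on the minus strand. It had 2.71, 3.82 and 4.35 CPM in OE, against 2.72, 3.44 and 4.26 CPM in NC. OE held both the highest and the lowest library, so the NC values lay inside the OE range. The means were 3.63 ± 0.837 CPM in OE and 3.47 ± 0.769 CPM in NC (SD, n = 3 each). The log2 fold change was 0.06 (SE 0.24), with a 95% interval of -0.50 to 0.63 in edgeR's fit. Its sign turned without NC replicate 1 and without OE replicate 3.

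Zic1 was the most abundant of the 10 members, in CPM and per kilobase of exon. The gene (ENSMUSG00000032368) lies on chromosome 9 of mm10 from 91358058 to 91365810 on the minus strand. It had 16.1, 20.6 and 13.4 CPM in OE, against 24.3, 25.3 and 17.1 CPM in NC. The 2 highest libraries were NC and the 2 lowest were OE, but OE replicate 2 was above NC replicate 3, so the groups overlapped. The means were 16.7 ± 3.64 CPM in OE and 22.2 ± 4.48 CPM in NC (SD, n = 3 each). The log2 fold change was -0.41 (SE 0.20), with a 95% interval of -0.88 to 0.06 and an unadjusted p of 0.0802 in edgeR's quasi-likelihood test. Zic1 did not pass the test, and its fold change was negative in the 17 other settings tried, between -0.73 and -0.17.

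Zic4 (ENSMUSG00000036972) is the neighbour of Zic1, from 91362413 to 91389348 on the plus strand of chromosome 9. The annotated genes overlap by 3398 bases on opposite strands, so their counts are uncertain in the shared part. Zic4 had 1.77, 2.83 and 1.12 CPM in OE, against 1.29, 2.07 and 1.24 CPM in NC. OE replicate 2 was the highest library and OE replicate 3 the lowest, so the NC values fell inside the OE range. The log2 fold change was 0.31 (SE 0.37), with a 95% interval of -0.55 to 1.17 in edgeR's fit. It was -0.081 without OE replicate 2 and -0.45 without OE replicates 1 and 2. Choroid plexus markers were highest in those libraries, and whether they have a part in this change of sign was not tested. The promoters of this pair are shown because the genes share a locus but differed in level, in the 250 bases before the RefSeq starts in GRCm38.p6, 5′ to 3′ on each gene's own strand. Zic1 is read from chr9:91365769-91366018 on the minus strand and Zic4 from chr9:91368722-91368971 on the plus strand, and capitals mark GGGCGG. The Zic4 window lies inside the annotated Zic4 gene, past its annotated start at 91362413, so it need not be the promoter of all the transcripts counted.
Zic1 promoter: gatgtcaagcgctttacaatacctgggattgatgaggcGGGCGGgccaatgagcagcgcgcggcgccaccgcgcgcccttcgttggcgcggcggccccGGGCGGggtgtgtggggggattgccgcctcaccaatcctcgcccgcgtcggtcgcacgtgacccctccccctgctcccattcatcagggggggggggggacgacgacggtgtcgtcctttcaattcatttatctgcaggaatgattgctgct
Zic4 promoter: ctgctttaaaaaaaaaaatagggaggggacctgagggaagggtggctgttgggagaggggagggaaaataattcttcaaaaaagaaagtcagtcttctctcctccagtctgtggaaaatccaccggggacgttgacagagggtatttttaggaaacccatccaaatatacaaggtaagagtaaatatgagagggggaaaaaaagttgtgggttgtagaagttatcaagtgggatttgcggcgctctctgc

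The Zic1 window held 66.0% G and C with 27 CpG pairs, and the Zic4 window 44.4% with 4, against medians of 52.4% and 6 over 32851 promoter windows of the same length from 27025 genes. RefSeq had a window for 9 of the 10 members. Both strands were searched for TATAAA (the TATA box), for GGGCGG (the GC box) and for TGACGTCA (the cyclic AMP response element), and no matches overlapped in the members' windows. TATAAA was found in Pmch, Hcrt and Trpc4 and in 12.4% of all windows. It lay 27 bases before the start in Pmch and 33 in Hcrt, on the gene's own strand. In Trpc4 it lay 232 bases before the start and on the opposite strand only. GGGCGG was found in Trh, Hcrt, Gal, Zic1 and Trpc4 and in 32.7% of all windows, and TGACGTCA in 0 of the 9 and in 1.55% of all windows. These matches describe the sequence and say nothing about binding.

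Zic2 (ENSMUSG00000061524), on chromosome 14 from 122475435 to 122479852, varied least of the 5 tested members, by 1.48-fold between its highest and lowest libraries. It had 4.13, 5.23 and 5.69 CPM in OE, against 4.34, 3.85 and 5.10 CPM in NC. OE replicates 2 and 3 were the highest libraries, and OE replicate 1 was below 2 of the NC libraries. The log2 fold change was 0.18 (SE 0.19), with a 95% interval of -0.25 to 0.61 in edgeR's fit. It was 0.075 without OE replicate 3, 0.089 without NC replicate 2 and 0.30 without OE replicate 1.

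Trpc4 (ENSMUSG00000027748), on chromosome 3 from 54156035 to 54318471, is on the same chromosome as Pde5a. It had 4.28, 6.65 and 8.25 CPM in OE, against 6.85, 5.24 and 6.41 CPM in NC. The NC values lay between the lowest and the highest OE library. The log2 fold change was 0.05 (SE 0.24), with a 95% interval of -0.51 to 0.61 in edgeR's fit. Its sign turned without NC replicate 2 and without OE replicate 3.

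**Figure D2:**
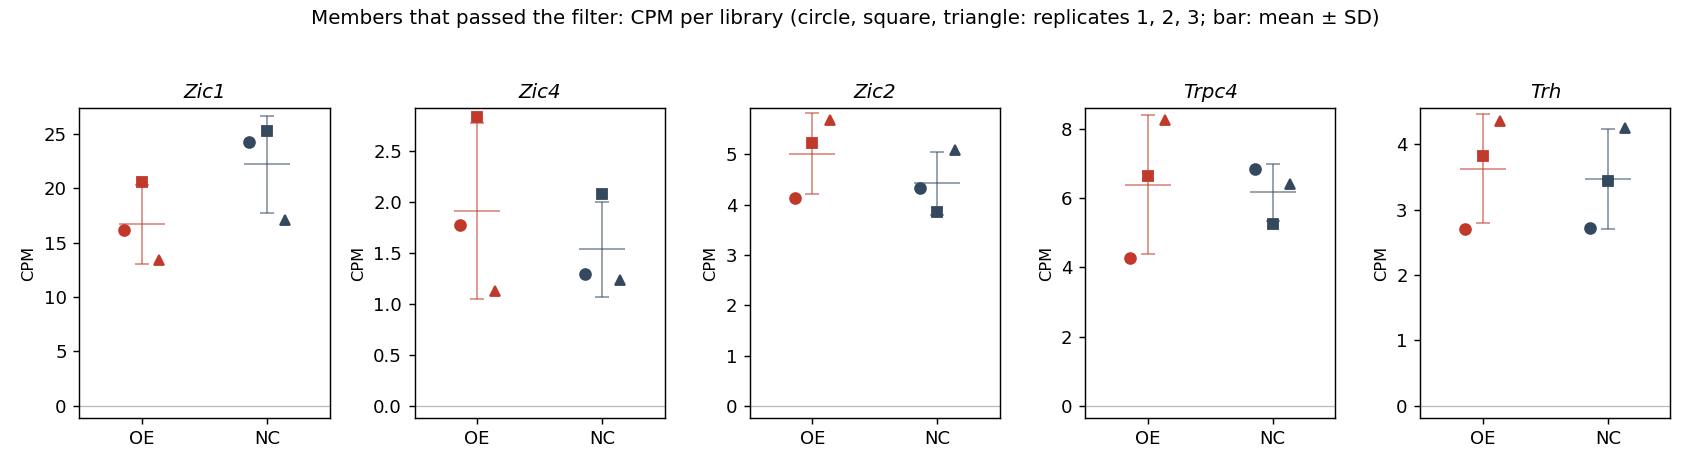
CPM of the 5 members that passed the filter, with 1 point per library (circle, square and triangle for replicates 1, 2 and 3), OE left of NC, and bars for the mean ± SD of 3 libraries. The groups overlap for each gene, and the largest gap between means is that of Zic1, at 16.7 CPM in OE and 22.2 CPM in NC.

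Levels of different genes were compared per kilobase of annotated exon, as the mean over the 6 libraries. Zic1 stood at 3.42 ± 0.831, Trh at 2.56 ± 0.523 and Zic2 at 1.64 ± 0.2496 CPM per kb (SD, n = 6). The ranges of Zic1 and Trh overlapped, as did those of Trh and Zic2. Trpc4 followed at 0.782 ± 0.171 CPM per kb, wholly below Zic2. Avp at 0.383, Gal at 0.307, Pmch at 0.193 and Zic4 at 0.166 CPM per kb overlapped with each neighbour in that order, and Avp with Trpc4. Oxt and Hcrt came last, at 0.0230 and 0.0106 CPM per kb. Zic4 has many annotated transcripts, and its 10335 bases of exon lower its value per kilobase.

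**Figure D3:**
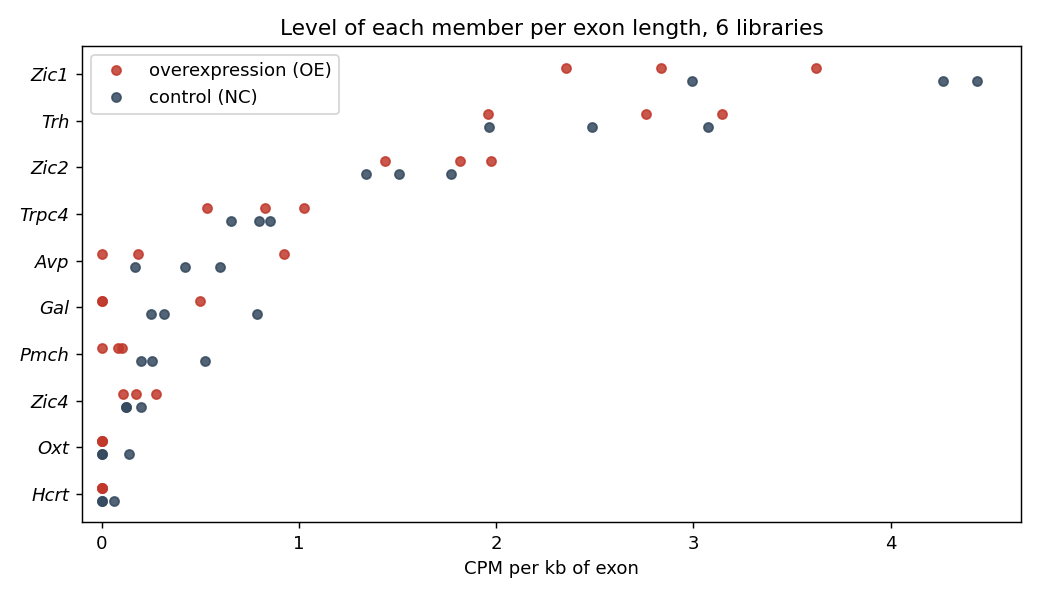
CPM per kilobase of exon for each member, with 1 point per library (OE above NC), ordered by the mean over 6 libraries. Zic1, Trh and Zic2 lie at 1.34 CPM per kb or above in every library, and Oxt and Hcrt lie at 0 in 5 of 6 libraries each.

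The tested members had dissimilar patterns across the 6 libraries. Likeness was measured as the root mean square difference between log2 CPM values, each centred on its gene's own mean, where a smaller value means a closer pattern. By the same measure, the spread around a gene's own mean was 0.27 for Trh, 0.20 for Zic2 and 0.30 for Trpc4. It was 0.33 for Zic1 and 0.46 for Zic4. A gene at the same level in every library would differ from each member by that much, so part of a difference reflects spread alone. Trh and Zic2 differed by 0.18, Zic2 and Trpc4 by 0.19, and Trh and Trpc4 by 0.25 on the log2 scale. OE replicate 3 was the highest library for each of these 3 genes. Zic1 and Zic4 differed from them by 0.48 to 0.64, and from each other by 0.42. For both, OE replicate 3 was the lowest library, and NC replicate 2 was among the 2 highest. Zic5, which lies 9757 bases from Zic2, differed from Zic2 by 0.28. Shared coding runs between Zic genes were short, at most 42 bases, between Zic1 and Zic4.

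Summed levels of cortical markers had the order OE replicate 3, NC replicate 3, OE replicate 2, NC replicate 1, OE replicate 1 and NC replicate 2 from high to low. Those of 16 medium spiny neuron markers, the principal neurons of the striatum, ran in the reverse order, except that OE replicate 2 and NC replicate 1 changed places. Against the mean log2 level of the cortical list over 6 libraries, Zic2 had a Pearson r of 0.89 (exact permutation p = 0.0139, adjusted 0.241) and a Spearman rho of 0.83 (exact permutation p = 0.0583, adjusted 0.292). Without the 2 libraries farthest from the median of the cortical level, r was 0.69. With the medium spiny neuron list Zic2 had an r of -0.87 (exact permutation p = 0.0306, adjusted 0.241) and a rho of -0.83 (exact permutation p = 0.0583, adjusted 0.292). Trpc4 had an r of -0.84 with that list (exact permutation p = 0.0361, adjusted 0.241) and a rho of -0.77 (exact permutation p = 0.103, adjusted 0.340). Without the 2 libraries farthest from the median of the medium spiny neuron level, r was -0.71 for Zic2 and -0.88 for Trpc4. Zic4 had a rho of -0.83 with the cortical list and of 0.83 with the medium spiny neuron list (exact permutation p = 0.0583, adjusted 0.292 for each). Its Pearson r was -0.60 and 0.69 (exact permutation p = 0.214 and 0.128, adjusted 0.428 and 0.319). Without the 2 libraries farthest from the median of each list, r was -0.44 and 0.16 for Zic4. All of these belong to 20 relations of 5 members with 4 lists, chosen after the values were seen, of which 0 passed after Benjamini-Hochberg adjustment. The lists of thalamic and choroid plexus markers were the other lists, and 3 libraries a group are too few to test a relation within a group.

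**Figure D4:**
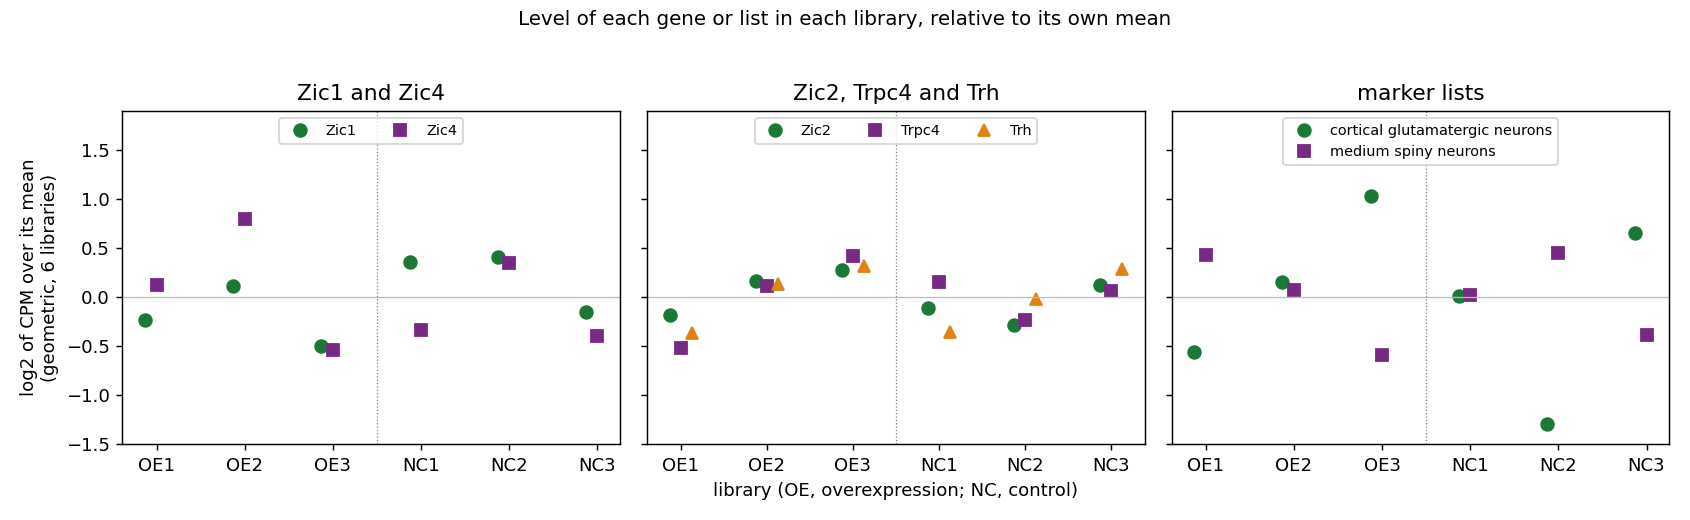
Log2 of each level over its geometric mean across the 6 libraries, for Zic1 and Zic4 (left), Zic2, Trpc4 and Trh (middle) and the summed CPM of cortical and medium spiny neuron markers (right), with OE libraries left of NC libraries. In OE replicate 3, Zic1 and Zic4 lie below their means, and Zic2, Trpc4 and Trh above theirs.

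Genes with the closest pattern to each member were picked from 13835 named genes of at least 1 CPM on average. For Zic2 they were Pknox2, a homeodomain factor, at 0.03 log2, Borcs5 at 0.05 and Galns, a lysosomal sulfatase, at 0.05. For Trh they were Tomm6, a subunit of the mitochondrial import pore, at 0.05 and Lrrc24 at 0.07, and for Trpc4 they were Coprs and R74862 at 0.06 and Pus1, a pseudouridine synthase, at 0.07. Zic1 was closest to Il20ra at 0.12, to Pde3a, a phosphodiesterase of cyclic AMP and cyclic GMP, at 0.13, and to Gas2l3 at 0.13. Zic4 was closest to Rhbdf2 at 0.11, Marveld3 at 0.12 and Zfp976 at 0.12. With 6 libraries and so many candidates, close patterns are easily found, and no shared function is read from them.

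Receptors of the 6 peptides were read from the same fit, since striatal cells can carry receptors for peptides made elsewhere. Of 12 receptor genes, 9 were tested, 0 passed, and their median log2 fold change was 0.00, the same as over all genes tested to 2 decimals. Mchr1, the receptor of melanin-concentrating hormone, was the most abundant, at 27.7, 27.5 and 19.9 CPM in OE, against 21.4, 33.9 and 20.5 CPM in NC. Mchr1 mRNA was present in every library while the Pmch mRNA was near 0. Oxtr, the oxytocin receptor, had 2.71, 4.30 and 3.47 CPM in OE, against 2.10, 2.27 and 6.11 CPM in NC, and these groups overlapped. Trhr, a receptor of thyrotropin-releasing hormone, had 0.684, 0.541 and 1.49 CPM in OE, against 1.74, 1.29 and 3.27 CPM in NC. OE replicate 3 lay inside the NC range, and the log2 fold change of -1.20 (SE 0.48) had an unadjusted p of 0.0394 and an adjusted p of 0.99996 in edgeR's quasi-likelihood test. Hcrtr2, an orexin receptor, had 1.42, 0.722 and 1.63 CPM in OE, against 2.22, 1.66 and 1.68 CPM in NC. It was the one tested receptor gene of 9 whose groups did not overlap, against 8.93% of all genes tested in either direction and 4.11% with OE the lower group. Hcrtr2 had a log2 fold change of -0.55 (SE 0.32) and did not pass edgeR's quasi-likelihood test (adjusted p 0.99996). Avpr1a, a vasopressin receptor known from the lateral septum, had at most 13 counts in any library and was not tested.

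Of 13 hypothalamic transcription factors, 12 had at most 8 counts in any library, and 4 of these had 0 counts in all 6. The exception was Nkx2-1, which is also made by striatal cholinergic interneurons, with 4.81, 3.22 and 1.52 CPM in OE, against 6.25, 5.75 and 2.25 CPM in NC. Of 12 further hypothalamic peptide genes, a larger share than of the peptide members passed the filter: 7 were tested and 0 passed the test, with a median log2 fold change of -0.16. Among them Pomc, the precursor of melanocortins and beta-endorphin, had 0.709, 1.11 and 0.480 CPM in OE, against 2.58, 1.44 and 0.792 CPM in NC. One OE library lay inside the NC range of Pomc, whose log2 fold change was -1.07 (SE 0.49) with an adjusted p of 0.99996 in edgeR's quasi-likelihood test. Nts, the neurotensin gene, which is also known from the lateral septum, had 3.57, 5.05 and 2.002 CPM in OE, against 3.10, 7.80 and 3.89 CPM in NC.

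Of 9 further septal genes, 8 were tested, 0 passed, and the median log2 fold change was -0.11, with 3 positive and 5 negative. Their summed level was 58.6, 54.1 and 36.0 CPM in OE, against 48.5, 68.9 and 41.2 CPM in NC, and the groups overlapped. From high to low, the libraries had the same order in this sum as in that of the medium spiny neuron markers. Whether striatal cells have a part in the summed level of the septal list was not tested. Lhx8 and Gbx1, transcription factors of basal forebrain cholinergic neurons, had log2 fold changes of -0.76 (SE 0.46) and -0.74 (SE 0.42). Crhr2, a receptor of the corticotropin-releasing hormone family known from the lateral septum, had 1.24, 2.38 and 0.801 CPM in OE, against 0.477, 0.829 and 1.53 CPM in NC. Its groups overlapped, and its log2 fold change was 0.63 (SE 0.53). Ano2, a calcium-activated chloride channel, was the most abundant of this list, at 29.3, 21.4 and 12.9 CPM in OE, against 15.7, 29.4 and 15.4 CPM in NC. Ano2 thus made up a large part of the summed level, and its libraries had the same order as that sum.

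Of the 6 other genes of the TRPC channel family, 5 were tested and 0 passed. Trpc5, the closest relative of Trpc4, had 1.8999, 2.62 and 2.64 CPM in OE, against 3.77, 2.97 and 4.95 CPM in NC. Every OE library of Trpc5 was below every NC library, with a log2 fold change of -0.71 (SE 0.24), an unadjusted p of 0.0201 and an adjusted p of 0.99996 in edgeR's quasi-likelihood test. Trpc5 was not alone in this list. For 2 of the 5 tested genes the groups did not overlap, with OE lower, against 4.11% of all genes tested. Unadjusted p under 0.05 was found for 2 of the 5, and with OE lower for 1.64% of all genes tested. The 10 genes that process and store peptides had a median log2 fold change of 0.06, with 0 passed. Cpe, the carboxypeptidase that trims peptide ends, had 1904, 1915 and 1815 CPM in OE, against 1878, 1854 and 2071 CPM in NC.

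**Figure D5:**
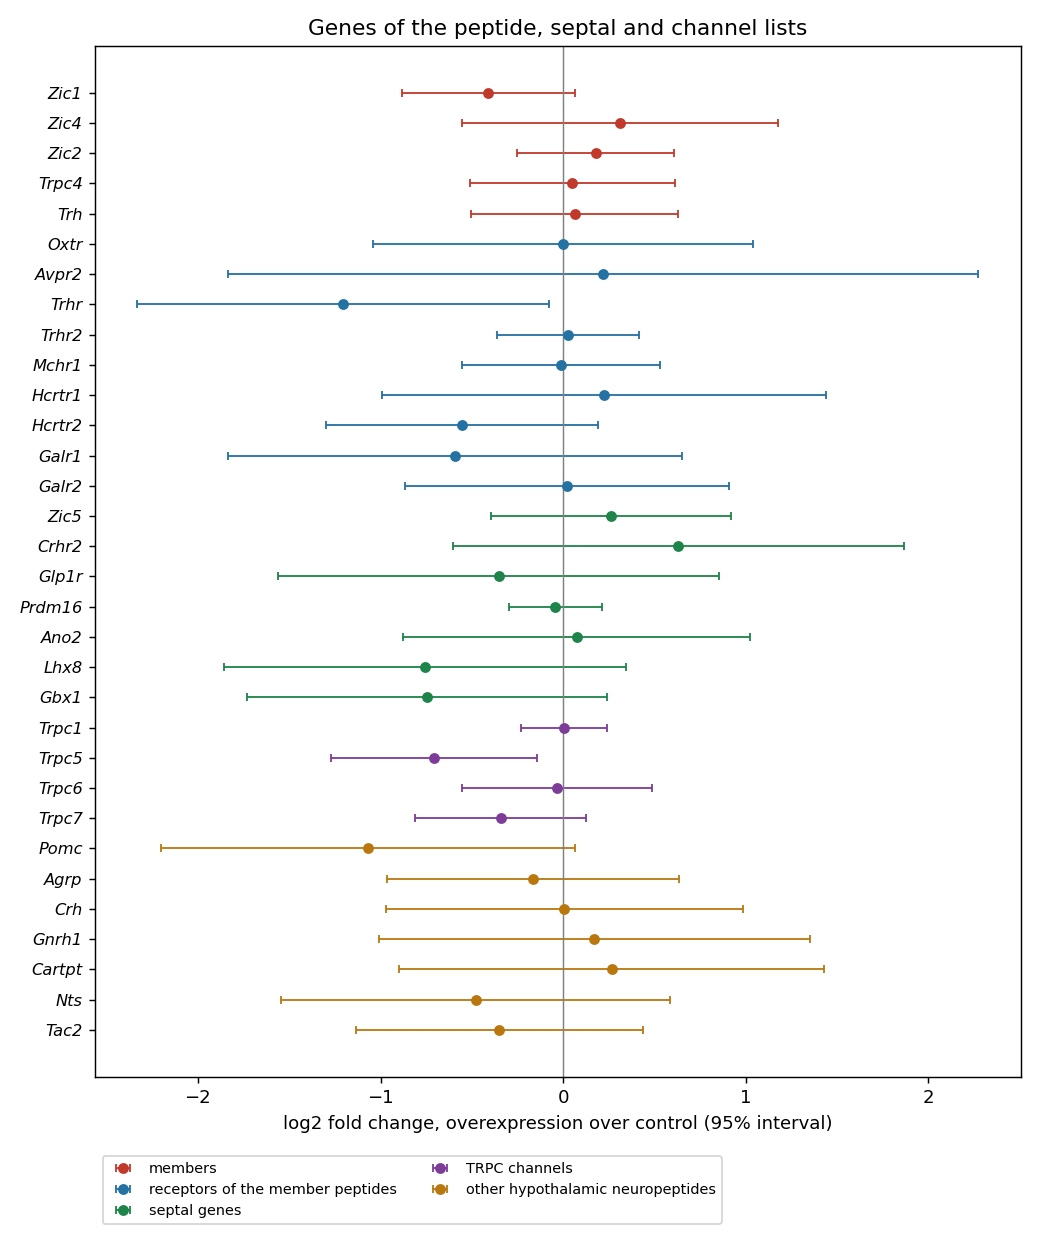
Log2 fold changes of OE over NC with 95% intervals from edgeR's quasi-likelihood fit, for the 5 tested members and the reported genes of 4 further lists. The intervals of the 5 members include 0, and of the genes drawn those of Trhr and Trpc5 do not, before adjustment over all genes.

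Marker lists of thalamus and meninges were read from the same libraries. The 12 thalamic markers summed to 144, 154 and 160 CPM in OE, against 219, 171 and 181 CPM in NC, so each OE library was lower. Of these sums, Rora, a nuclear receptor gene that is not limited to the thalamus, made up 68.4, 60.7 and 63.1 CPM in OE, against 80.6, 67.1 and 72.0 CPM in NC. The groups of Rora overlapped. Of the 12 thalamic genes, 10 had a negative log2 fold change and 2 a positive one, with a median of -0.39. For 4 of the 12 the groups did not overlap, with OE lower, against 4.11% of all genes tested. In edgeR's quasi-likelihood test 0 of the 12 passed, and the smallest adjusted p was 0.824. The 11 meningeal fibroblast markers summed to 58.6, 131 and 46.6 CPM in OE, against 39.4, 47.9 and 38.1 CPM in NC. Of these, 10 were tested, with 10 positive and 0 negative log2 fold changes and a median of 0.27, and 0 passed. For 2 of the 10 the groups did not overlap, with OE higher, against 4.81% of all genes tested. Igf2, which encodes a growth factor, made up most of the highest sum, with 35.8, 106 and 22.0 CPM in OE, against 19.8, 23.2 and 17.8 CPM in NC. On the mean log2 CPM of the meningeal list, where each gene counts alike, the levels were 1.10, 1.20 and 1.26 in OE, against 0.86, 1.15 and 0.81 in NC. Zic1 is known from thalamus and meninges as well as septum. Against the mean log2 level of the thalamic list, Zic1 had a Pearson r of 0.48 (exact permutation p = 0.353, adjusted 0.543). Without the 2 libraries farthest from the median of that level, OE replicate 1 and NC replicate 1, r was 0.015. No relation with the meningeal list was computed, and whether cells of either tissue have a part in the level of Zic1 was not tested.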

How the data were processed

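Per the labels' protocols, total RNA of striatum was isolated with Trizol and strand-specific TruSeq libraries were made. The deposited files hold raw counts per Ensembl gene, without normalization. The tools listed, per the submitters' processing notes, are STAR 2.5.3a, DESeq 1.16.1, Cuffnorm and FastQC 0.11.5, with build mm10 and no roles. The counting program, its strand setting and its annotation remain not given in the sources used here.

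From the counts, 55154 of 55335 identifiers were matched to GENCODE M21 symbols. All genes were fitted with edgeR 4.0.16 in R 4.3.3, with TMM factors, filterByExpr, robust quasi-likelihood F-tests (two-sided) and Benjamini-Hochberg adjustment over 19809 genes. CPM use TMM-adjusted library sizes, and log2 CPM a prior count of 2. Standard errors are the log2 fold change over the square root of F. Intervals use the fit's degrees of freedom. Counting intervals and limits cover counting error only. The code was tested on simulated data. Replicate libraries differed by 19.1 to 49.6 in chi-square per degree of freedom, beyond sampling noise.

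The members and the 12 companion lists were chosen with earlier results of these data known. Named beside the members are, per list, the 3 tested genes with the smallest p and the 2 of highest mean CPM, as far as a result turns on them, and the 3 nearest patterns per member. Zic5, Avpr1a and Parpbp are outside that rule and were chosen after their values were seen. Some genes that the rule or the lists hold are not reported here. Alternatives were other scalings and filters, DESeq2 1.42.0, limma-voom, a replicate block and libraries left out.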

Additional observations from a re-analysis of the deposited data

How the results depend on the processing

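In each alternative fit with more than 1 sample per group, 0 of the members fitted passed the threshold. Oxt, Avp, Pmch, Hcrt and Gal did not pass the filter of the fit as reported. In the fit without a filter they were included, and 0 of them passed. Genes past it over the whole table, 1 in the fit as reported (Pde5a), were 83 with the DESeq2 Wald test, 5 with limma-voom, 3 without a filter, 1 to 2 when 1 library was left out (2 without NC replicate 2 and without NC replicate 3), and 5 without OE replicates 1 and 2, where the lone OE sample is assumed to vary like the others. They were 4 without NC replicate 2 and OE replicate 3, the libraries lowest and highest in cortical markers, a setting chosen after seeing the data. The replicate block gave 3 genes. The replicate numbers were not taken to pair the samples, since same-numbered libraries correlated by -0.02, 0.03 and 0.29 in their deviations, and OE replicate 1 correlated best with NC replicate 2. Among the companion lists the DESeq2 Wald test called 1 gene of the thalamic list, Prkcd. The log2 fold change of Pde5a lay between 6.99 and 7.44. That of Zic1 kept its sign throughout. With 1 library left out, the log2 fold change ran from -0.094 to 0.24 for Trh, from 0.075 to 0.30 for Zic2, from -0.081 to 0.59 for Zic4 and from -0.18 to 0.27 for Trpc4. Without both NC replicate 2 and OE replicate 3, Zic4 was at 0.86 (SE 0.32), its highest value in any setting. Signs turned for Trh without NC replicate 1 (-0.08) and without OE replicate 3, for Zic4 without OE replicate 2, and for Trpc4 without NC replicate 2 (-0.05) and without OE replicate 3. They also turned for Zic4 without OE replicates 1 and 2 (-0.45), for Trpc4 with limma-voom (-0.00081), and without the cortical extremes for Trh (-0.095), Zic2 (-0.011) and Trpc4 (-0.28). The cause was not tested. Depth limits what can be said of Oxt and Hcrt, with 3 and 2 counts in all libraries together.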

Other observations

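Trpc2, another gene of the channel family, chosen after its values were seen, had 31, 0 and 0 counts in OE replicates 1 to 3, against 0, 0 and 0 in NC. The same OE library held 21 of the 53 counts of Avp over all 6 libraries. Calb2, a thalamic list gene also chosen after its values were seen, had 2.15, 17.5 and 3.15 CPM in OE, against 3.48, 3.53 and 7.55 CPM in NC, with OE replicate 2 the highest library.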
